A study of Homo sapiens with 6 samples.

Results

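The 113 protein-coding genes of oxidative phosphorylation were examined in the established human glioblastoma line U251 after exposure to tumor necrosis factor-α. The genes were chosen by symbol from the 58735 genes of the expression table, of which 19951 were protein-coding. The choice covered the NDUF, SDH, UQCR, CYC1, COX and ATP5 families and the protein-coding genes of mitochondrial DNA, and it used no measured value. Of the 113 genes, 13 are encoded in mitochondrial DNA and 100 in the nucleus. The nuclear genes comprised 37 of complex I, 4 of complex II, 10 of complex III, 19 of complex IV, 9 assembly factors of complex IV that carry a COX symbol, and 21 of complex V. NDUFA4 and NDUFA4L2 were counted with complex IV.

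Oxidative phosphorylation couples the oxidation of NADH and succinate to the synthesis of ATP in the inner mitochondrial membrane. Electrons enter through complex I (NADH dehydrogenase) or complex II (succinate dehydrogenase), pass through complex III (cytochrome bc1) and reach oxygen at complex IV (cytochrome c oxidase). The protons pumped on the way drive complex V, the ATP synthase. Complex II is wholly nuclear-encoded, whereas each of the other complexes joins nuclear subunits with protein made from mitochondrial mRNAs. Those mRNAs are cut from long polycistronic transcripts by the removal of the tRNAs that lie between most of them, and most of them carry poly(A) tails. Glioblastoma cells are known for high glycolysis, and they retain a respiratory chain.

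The NC group consisted of 3 cultures that received sterile deionized water, and the TNF-α group of 3 cultures that received recombinant human TNF-α at 10 ng/mL, each for 24 h. All cultures were of the same line in high-glucose medium with serum, and the labels describe the 3 cultures of a group as independent biological replicates. Poly(A)-selected RNA was sequenced, and 31992167 to 37897044 reads per library fell in genes. Values are FPKM, fragments divided by the kilobases of merged exons and by a library size, on GRCh38 with the gene models of GENCODE 29. Log2 values refer to log2(FPKM + 1), and "log2 ratio" is the difference between 1 library and the NC mean on this scale.

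TNF-α replicates 2 and 3 stood apart from the other 4 libraries, so results are given by library and with and without them. Genes with merged exons longer than 8 kb took 28.8% to 29.1% of the reads in NC, 29% in TNF-α replicate 1, and 16.6% and 17.9% in TNF-α replicates 2 and 3. The library size used in the deposited FPKM was 0.925 to 0.959 of the reads in genes in the first 4 libraries and 0.693 and 0.759 in TNF-α replicates 2 and 3. The NF-kB target NFKBIA, which marks the response to TNF-α, was 13, 13.3 and 14.4 FPKM in NC and 75.3, 118 and 112 FPKM in TNF-α, so all 3 treated libraries carried the response. All 4 genes of this treatment check (NFKBIA, TNFAIP3, ICAM1 and CCL2) passed the test, with every TNF-α library above every NC library. Of the 9 glioma and astrocyte markers 7 were tested, 3 with a log2 fold change above and 4 below 0, while AQP4 was at 0 in every library and S100B at or near 0. The intermediate filament VIM was 325, 341 and 362 FPKM in NC and 434, 974 and 850.0 FPKM in TNF-α, while GFAP was low and fell, from 8.16, 7.1 and 9.47 FPKM in NC to 1.58, 2.6 and 2.39 FPKM in TNF-α (log2 fold change -1.54 ± 0.18 SE, limma adjusted p = 0.021, n = 3 and 3). SOX2 was 60.8, 58.9 and 66.3 FPKM in NC and 57.8, 22.6 and 30.4 FPKM in TNF-α, and EGFR was 22.8, 23.6 and 24.5 FPKM in NC and 30.4, 7.64 and 9.39 FPKM in TNF-α. The log2 fold changes of NES, CD44 and SLC1A3 were 0.36, 0.029 and -0.22, and GFAP was the only one of the 7 past the threshold. Among the macrophage markers CD68 shares 85.8% of its exonic length with exons of other genes, so its level is uncertain. The summed levels of the macrophage markers were 0.66 to 0.88 FPKM in NC and 0.528 to 1.66 FPKM in TNF-α, and PTPRC was at 0 in every library. Those of the endothelial markers were 0.126 to 0.173 FPKM in NC and 0.21 to 0.342 FPKM in TNF-α, of the neuron markers 4.45 to 4.82 FPKM in NC and 1.96 to 4.5 FPKM in TNF-α, of the oligodendrocyte markers 0.0304 to 0.0532 FPKM in NC and 0 to 0.0881 FPKM in TNF-α, and of the epithelial markers 0.809 to 0.964 FPKM in NC and 0.443 to 1.4 FPKM in TNF-α.

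To examine whether TNF-α altered these genes, the groups were compared with limma over the 12136 genes that reached 1 FPKM in 3 or more libraries. This filter kept all 13 mitochondrial and 87 of the 100 nuclear genes. None of the 100 genes passed an adjusted p of 0.05 (background 1.01% of all genes tested, 0.717% higher and 0.297% lower). The smallest adjusted p was 0.195. The unadjusted p was under 0.05 for 12 genes, against 24.2% of all genes tested. In limma-voom on recovered reads 0 genes passed the adjusted threshold (background 0.964%). The level of RNA per cell and the number of cells per culture cannot be told apart in such bulk libraries.

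Levels were nonetheless far from equal between the treated libraries. The median log2 fold change of the 87 nuclear genes was 0.81 against 0.043 for all genes tested. Of the 87, 84 had a value above 0, against 6432 of the 12136 genes tested. By library, their log2 ratio had a median of -0.10, 1.41 and 1.10 in TNF-α replicates 1, 2 and 3, that is a median fold of 0.924, 2.94 and 2.35. TNF-α replicates 2 and 3 lay above every NC library for 83 of the 87 nuclear genes (background 46.1%), and below every one for 3 (background 40.8%). By contrast, TNF-α replicate 1 was under the whole NC range for 52 (background 34.3%), within the NC range for 27 (background 35.2%) and above it for 8 (background 30.5%). In both TNF-α replicates 2 and 3, 61 of the 87 nuclear genes reached at least 2-fold, against 15.8% of all genes tested. Without TNF-α replicate 1, 94 of the 100 genes passed the test, 92 higher and 2 lower, but so did 79.4% of all genes tested, 42.6% higher and 36.8% lower. The median log2 fold change of the nuclear genes was then 1.25, and without TNF-α replicate 2 it was 0.51. With TNF-α replicate 1 as the only treated library, 0 of 100 genes passed (background 6.03%), 17 had an unadjusted p under 0.05, and the nuclear median was -0.10.

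The 13 mitochondrial mRNAs had a higher median than the nuclear genes in TNF-α replicate 1 and a lower one in TNF-α replicates 2 and 3, a difference that was not tested. Their median log2 fold change was 0.42, and by library their ratios centred on 0.15, 0.63 and 0.47 in TNF-α replicates 1, 2 and 3. In TNF-α replicate 1, in which most nuclear genes were at or below the NC range, 11 of the 13 lay above every NC library (background 30.5%). In TNF-α replicates 2 and 3 they lay less far above NC than the nuclear genes, 10 of the 13 exceeded every NC library in both (background 46.1%), and MT-ND3, MT-ND6 and MT-CO2 reached 2-fold in both (background 15.8%). The 2 groups did not overlap, with TNF-α higher, for 9 of the 13 mitochondrial and 8 of the 87 nuclear genes (background 14.8%), and with TNF-α lower for 0 and 3 (background 15.3%).

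**Figure D1:**
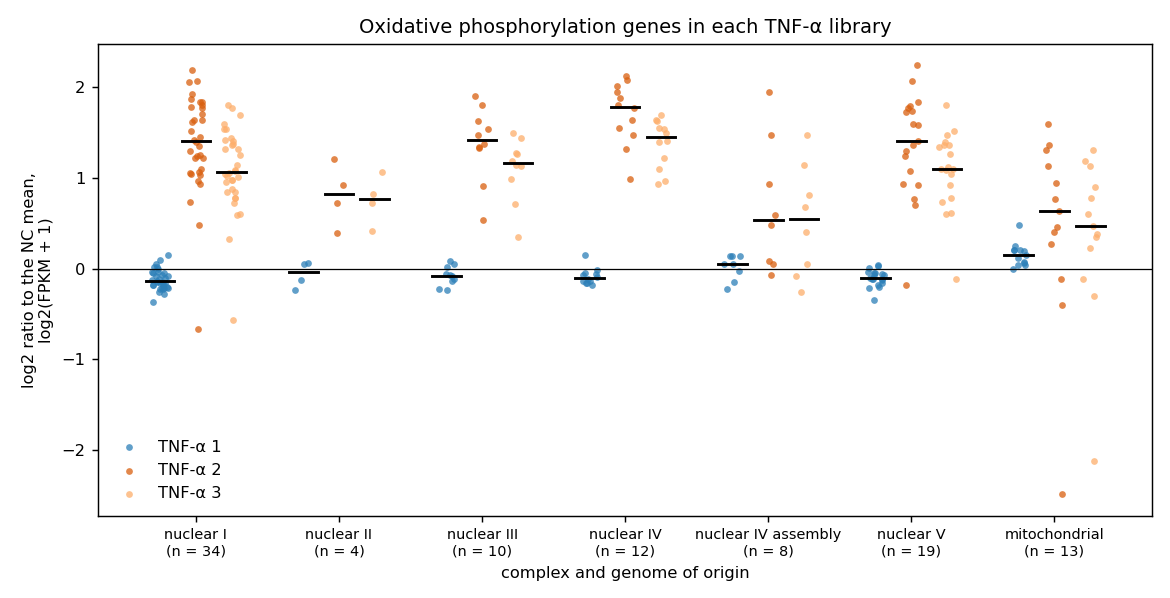
Log2 ratio to the NC mean on log2(FPKM + 1) of the 100 tested genes (vertical axis) by complex and genome of origin (horizontal axis), with 1 point per gene and library and black bars for medians. The nuclear medians of complexes I to V lie near 0 in TNF-α replicate 1 and between 0.77 and 1.79 in TNF-α replicates 2 and 3, while the mitochondrial medians are 0.15, 0.63 and 0.47.

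Set against the nuclear subunits of the same complex, the mitochondrial mRNAs were higher in TNF-α replicate 1 and lower in TNF-α replicates 2 and 3. For complex I the mitochondrial median log2 ratio minus the nuclear one was 0.34, -0.64 and -0.47 in TNF-α replicates 1, 2 and 3, with -0.042 to 0.037 over the NC libraries. The same difference was 0.11, -0.96 and -0.78 for complex III, where MT-CYB is the single mitochondrial mRNA, with -0.017 to 0.016 in NC. It was 0.22, -0.66 and -0.55 for complex IV, with -0.065 to 0.079 in NC. For complex V it was 0.41, -1.30 and -1.02, with -0.19 to 0.11 in NC. That median rests on MT-ATP6 and the low MT-ATP8, and with MT-ATP6 alone the difference was 0.25, -0.78 and -0.63, with -0.065 to 0.033 in NC. In all 4 complexes each treated library thus lay outside the NC values, but the treated libraries lay on both sides of them. The FPKM summed over the 13 mitochondrial mRNAs was 10.3, 11.1 and 10.6 times that of the nuclear genes in NC, and 12.9, 6.05 and 6.72 times in TNF-α. As a share of reads in genes, which the library size in the FPKM does not touch, the mitochondrial mRNAs took 2.81%, 2.87% and 2.79% in NC and 3.05%, 3.29% and 3.28% in TNF-α, and the nuclear genes 0.608%, 0.584% and 0.586% in NC and 0.533%, 1.15% and 1.03% in TNF-α.

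The mitochondrial mRNAs are described from complex I onwards. Because MT-ND4L with MT-ND4, and MT-ATP8 with MT-ATP6, lie on shared bicistronic mRNAs with overlapping reading frames, the junctions are shown first, from the GENCODE 29 transcripts on GRCh38, in the sense direction. Capitals mark the bases that both genes share, 7 in the first pair and 46 in the second.
MT-ND4L/MT-ND4, chrM:10745-10781, + strand: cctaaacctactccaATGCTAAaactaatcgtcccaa
MT-ATP8/MT-ATP6, chrM:8512-8587, + strand: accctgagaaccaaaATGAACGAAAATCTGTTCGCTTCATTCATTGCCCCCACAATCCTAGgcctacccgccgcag

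Complex I takes 7 subunits from mitochondrial DNA, all in its membrane arm. MT-ND1, which lies at the joint with the matrix arm, was 1563, 1677 and 1508 FPKM in NC and 1820.4, 3045 and 2718 FPKM in TNF-α, a log2 fold change of 0.64 ± 0.28 (SE) with a limma adjusted p of 0.195. MT-ND2 was 1657, 1679 and 1638 FPKM in NC and 1975, 2821 and 2513 FPKM in TNF-α (0.54 ± 0.25). In both genes each treated library exceeded each NC library. MT-ND3 was 978, 951 and 944 FPKM in NC and 952, 2468 and 2105 FPKM in TNF-α, so that only TNF-α replicates 2 and 3 were high. MT-ND6, the single mRNA of the light strand, was 421, 469 and 417 FPKM in NC and 503, 1078 and 991 FPKM in TNF-α (0.90 ± 0.33), with no overlap between the groups and the lowest unadjusted p of the 13, 0.0328. As the use of strand in counting was not stated, reads from the opposite strand cannot be told apart from MT-ND6. MT-ND5, the longest of the 13 at 1812 bases, was 887, 884 and 881 FPKM in NC and 923, 818 and 816 FPKM in TNF-α (-0.056 ± 0.19), with TNF-α replicate 1 slightly above and the other 2 slightly below the NC range.

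MT-ND4L had the lowest ratio to NC of the 13 mRNAs in TNF-α replicates 2 and 3. Its level was 1911, 1885 and 2011 FPKM in NC and 1993, 344 and 442 FPKM in TNF-α, with TNF-α replicate 1 inside the NC range and TNF-α replicates 2 and 3 at 0.178 and 0.228 of the NC mean. MT-ND4, on the same mRNA, was 4183, 4234 and 4382 FPKM in NC and 4902, 5647 and 5437 FPKM in TNF-α, all treated libraries above NC. The ratio of MT-ND4L to MT-ND4 was 0.457, 0.445 and 0.459 in NC and 0.406, 0.0609 and 0.0813 in TNF-α. The log2 fold changes were -1.52 ± 0.66 for MT-ND4L (adjusted p = 0.195) and 0.32 ± 0.25 for MT-ND4 (adjusted p = 0.347). Without TNF-α replicate 1 they were -2.31 ± 0.12 and 0.38 ± 0.089, both past the threshold, as were 79.4% of all genes tested. With TNF-α replicate 1 alone the MT-ND4L value was 0.042. MT-ND4L is 297 bases long, and the other short mRNAs differed among themselves in TNF-α replicate 2, with MT-ATP8 (207 bases) at 0.734, MT-ND3 (346 bases) at 2.58 and MT-ND6 (525 bases) at 2.47 times the NC mean. Reads across the shared bases cannot be assigned to 1 of both genes with certainty.

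On the other bicistronic mRNA, the ratio of the upstream to the downstream gene was also lowest in TNF-α replicates 2 and 3, with a far lower FPKM listed for the upstream gene. MT-ATP8, the shortest of the 13 at 207 bases, was 41.8, 40.1 and 26.3 FPKM in NC and 49.6, 26.5 and 28.4 FPKM in TNF-α. The groups overlapped, with TNF-α replicate 1 above every NC library. TNF-α replicates 2 and 3 lay above NC replicate 3 and below NC replicates 1 and 2. MT-ATP6, which forms part of the proton path of the ATP synthase, was 2936, 3039 and 3073 FPKM in NC and 3341, 4674 and 4171 FPKM in TNF-α (0.42 ± 0.26), with each treated library above NC. The ratio of MT-ATP8 to MT-ATP6 was 0.0143, 0.0132 and 0.00857 in NC and 0.0149, 0.00566 and 0.00682 in TNF-α. The sign of the MT-ATP8 change was not stable, since its log2 fold change was -0.077 ± 0.30 in all libraries and above 0 when NC replicate 1 or 2 or TNF-α replicate 2 or 3 was left out. MT-ATP6 has a near-identical copy in the nuclear genome, MTATP6P1, which was listed at 0.196 to 0.209 of the MT-ATP6 FPKM in NC, so reads of the pair cannot be assigned with certainty.

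Within complex IV the 3 core mRNAs differed from each other in their ratio to NC. MT-CO1, which holds the oxygen-reducing site, was 5321, 5410.4 and 5612 FPKM in NC and 5903, 6556 and 6379 FPKM in TNF-α, with a log2 fold change of 0.20 ± 0.26 that became -0.062 when values were scaled by reads in genes. MT-CO2, which receives electrons from cytochrome c, was 4454, 4409 and 4427 FPKM in NC and 5083, 13340.2 and 10989.8 FPKM in TNF-α (1.03 ± 0.43, adjusted p = 0.195). MT-CO3 was 3526, 3662 and 3545 FPKM in NC and 3767, 7838 and 6654 FPKM in TNF-α (0.70 ± 0.36). All 3 had every treated library above every NC library, but the levels were 1.08, 1.2 and 1.17 times the NC mean for MT-CO1 and 1.15, 3.01 and 2.48 times for MT-CO2 in TNF-α replicates 1, 2 and 3. The MT-CO2 to MT-CO1 ratio was 0.837, 0.815 and 0.789 in NC and 0.861, 2.03 and 1.72 in TNF-α, so MT-CO2 exceeded MT-CO1 in TNF-α replicates 2 and 3 only. MT-CYB, the cytochrome b of complex III, was 1522, 1492 and 1483 FPKM in NC and 1537, 2064 and 1953 FPKM in TNF-α (0.29 ± 0.23), a difference that became -0.047 after correcting for GC content and length.

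**Figure D2:**
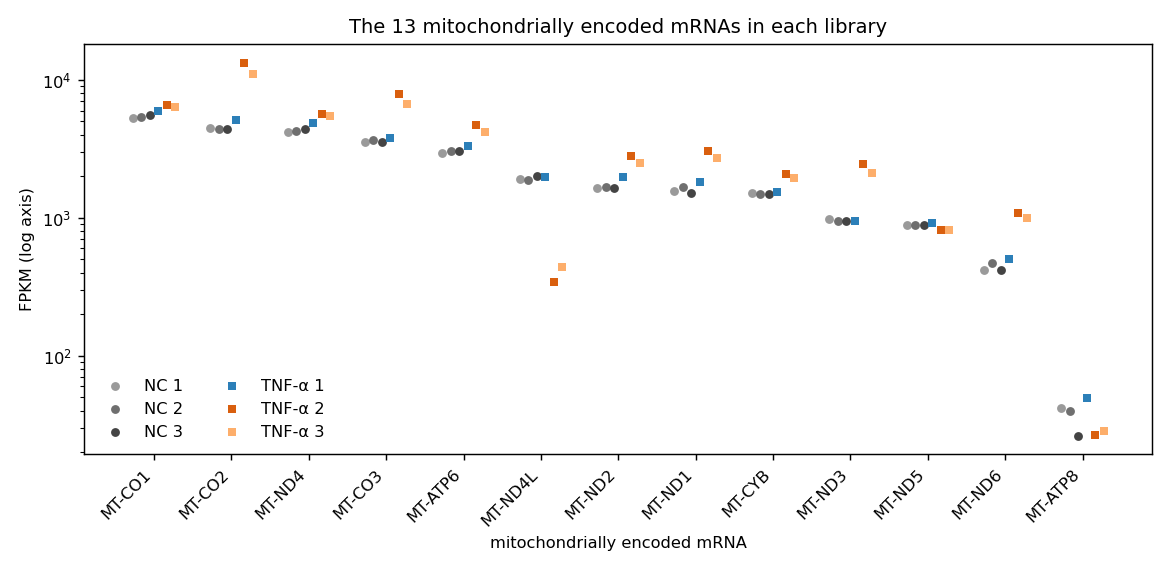
FPKM on a log axis (vertical) of the 13 mitochondrially encoded mRNAs (horizontal, ordered by NC mean), with 1 point per library, circles for NC and squares for TNF-α. MT-ND4L lies at 344 and 442 FPKM in TNF-α replicates 2 and 3 against 1885 to 2011 FPKM in NC, while MT-CO2 stands at 13340.2 and 10989.8 FPKM there.

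In NC the values listed for the 13 mitochondrial genes spanned 36.1 ± 8.5 FPKM (SD, n = 3) for MT-ATP8 to 5448 ± 149 for MT-CO1. MT-CO2 (4430.3 ± 22.5) and MT-ND4 (4266 ± 104) followed, then MT-CO3 (3578 ± 73.3) and MT-ATP6 (3016 ± 71.4). MT-ND4L stood at 1936 ± 66.7, MT-CYB at 1499 ± 20.2, MT-ND3 at 957 ± 18, MT-ND5 at 884 ± 2.98 and MT-ND6 at 436 ± 29. MT-ND2 (1658 ± 20.5) and MT-ND1 (1583 ± 86.4) were neighbours whose NC ranges overlapped, as did those of MT-ND1 and MT-CYB, while the other neighbours did not overlap in NC. MT-ND4L and MT-ATP8 lie on the same mRNAs as MT-ND4 and MT-ATP6, and MT-ATP8 shares 22.2% of its length. Their FPKM need not give the level of those mRNAs. Across the 13 mRNAs, the log2 ratio had Pearson's r = -0.30, 0.27 and 0.26 with log2 length in TNF-α replicates 1, 2 and 3. With the 2 shortest, MT-ND4L and MT-ATP8, left out after their values were seen, the sign turned, and over the other 11 the log2 ratio decreased with log2 length in TNF-α replicates 2 and 3 (Pearson's r = -0.85 and -0.85) but not in TNF-α replicate 1 (r = 0.11). These points share a library and come from mRNAs of common precursors, so they are not independent. The log2 ratios of TNF-α replicates 2 and 3 had r = 0.999 over the 13.

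Nuclear complex I genes were the most numerous, with 34 of 37 tested, 33 of them with a log2 fold change above 0 and a median of 0.84. By library the medians were -0.14, 1.41 and 1.07 in TNF-α replicates 1, 2 and 3. The accessory subunit NDUFB7 was 112, 109 and 116 FPKM in NC and 102, 515 and 384 FPKM in TNF-α (1.27 ± 0.59, adjusted p = 0.196), low in TNF-α replicate 1 and high in the other 2 treated libraries. The same order held for NDUFB11, an accessory subunit of the membrane arm, at 30.5, 30.8 and 31.5 FPKM in NC and 26.5, 132 and 111 FPKM in TNF-α. NDUFA1 was 70.7, 61.3 and 70.8 FPKM in NC and 59.3, 249.9 and 219.8 FPKM in TNF-α, and NDUFB9 was 9.75, 9.42 and 9.73 FPKM in NC and 9.02, 39.4 and 30.0 FPKM in TNF-α. The most abundant tested subunit, NDUFS5, was 254, 224 and 245 FPKM in NC and 220.2, 867 and 644 FPKM in TNF-α. In all 5 genes TNF-α replicate 1 was below the lowest NC library, so the groups overlapped in spite of mean log2 fold changes of 1.04 to 1.27.

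A single tested nuclear gene of complex I had a log2 fold change below 0. NDUFS1, the largest iron-sulfur subunit of the matrix arm, was 14.9, 14.7 and 13.7 FPKM in NC and 12.5, 8.74 and 9.42 FPKM in TNF-α, with every treated library below NC (-0.48 ± 0.16, adjusted p = 0.195). Its longest transcript has 11819 bases, and after the lengths and GC content of transcripts were corrected for, its log2 fold change was 0.071. NDUFS1 is named here because it was the exception, after its values were seen.

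The 4 subunits of complex II, which is wholly nuclear-encoded, showed a median log2 fold change of 0.52. This was lower than that of complexes I, III, IV and V, though the difference was not tested. After correction for GC content and length it was 0.43, against 0.56, 0.48, 0.72 and 0.60 for complexes I, III, IV and V. SDHA, the flavoprotein that oxidizes succinate, was 23, 21.5 and 24.6 FPKM in NC and 24, 54.5 and 49.2 FPKM in TNF-α (0.78 ± 0.31). Its iron-sulfur partner SDHB was 35.7, 33.1 and 33.9 FPKM in NC and 31.2, 65.5 and 61.1 FPKM in TNF-α (0.54 ± 0.29). For both, TNF-α replicates 2 and 3 were high and TNF-α replicate 1 was near or below the NC range. The membrane anchors were SDHC, 4.89, 4.62 and 4.72 FPKM in NC and 3.86, 6.55 and 6.63 FPKM in TNF-α (0.19 ± 0.20), and SDHD, 11.6, 12.9 and 9.98 FPKM in NC and 11.9, 19.5 and 19.5 FPKM in TNF-α (0.50 ± 0.22). The SDHC difference became -0.037 when scaled by reads in genes and 0.76 after correction for GC content and length. None of the 4 had an adjusted p under 0.05, the lowest being 0.195.

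All 10 nuclear genes of complex III had a log2 fold change above 0, with a median of 0.82 and library medians of -0.077, 1.42 and 1.16. Cytochrome c1, encoded by CYC1, was 70.2, 66.2 and 75.3 FPKM in NC and 67.7, 207 and 170.3 FPKM in TNF-α (0.92 ± 0.42, adjusted p = 0.195). The core protein UQCRC1, the most abundant of the 10, was 98, 94.4 and 105 FPKM in NC and 84, 276 and 227 FPKM in TNF-α. Both had TNF-α replicate 1 in or below the NC range and the other 2 treated libraries far above it. The small subunit UQCRQ was 49, 45.5 and 45 FPKM in NC and 43.8, 177 and 133 FPKM in TNF-α (1.11 ± 0.50). UQCR11 was 7.01, 8.22 and 7.12 FPKM in NC and 7.57, 28.6 and 21.8 FPKM in TNF-α (1.09 ± 0.45) and UQCR10 was 48.5, 41.7 and 46 FPKM in NC and 38.6, 142 and 111 FPKM in TNF-α (0.89 ± 0.47). Against these nuclear subunits the mitochondrial MT-CYB was 1.03, 1.38 and 1.3 times its NC mean in TNF-α replicates 1, 2 and 3.

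Nuclear complex IV subunits had the highest median of the 6 nuclear groups, 1.07, with library medians of -0.099, 1.79 and 1.45, and all 12 tested genes were above 0. COX6B1, a subunit that faces the intermembrane space, was 100.3, 89.6 and 101 FPKM in NC and 86.9, 378 and 286 FPKM in TNF-α (1.12 ± 0.54, adjusted p = 0.197). COX8A, a small membrane subunit and here the most abundant nuclear one of complex IV, was 123, 115 and 119.7 FPKM in NC and 105, 487 and 389 FPKM in TNF-α, and COX5B was 34.5, 31.9 and 37.5 FPKM in NC and 32.9, 154 and 110.1 FPKM in TNF-α. In these 3 genes TNF-α replicate 1 did not exceed the NC range. COX6C was the exception, at 14.3, 12.1 and 12.4 FPKM in NC and 14.4, 57.9 and 42 FPKM in TNF-α (1.29 ± 0.48, adjusted p = 0.195), in which TNF-α replicate 1 was above the highest NC library by a margin smaller than the NC SD.

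Several complex IV subunits have a second form that is restricted to certain tissues or to stress, and the mRNA levels of both forms were compared. COX4I1, the common form of subunit 4, was 32.6, 30.3 and 33.7 FPKM in NC and 31.8, 112 and 86.4 FPKM in TNF-α (1.05 ± 0.45), whereas COX4I2, known as a hypoxia-responsive form, was 0, 0.264 and 0 FPKM in NC and 0, 0.0557 and 0 FPKM in TNF-α. COX6A1 was 17.5, 15.5 and 16.3 FPKM in NC and 14.6, 53.4 and 39.7 FPKM in TNF-α, and its muscle form COX6A2 was listed at 0 in all 6 libraries. COX7A2 was 48.6, 48 and 50.1 FPKM in NC and 44.3, 182 and 144 FPKM in TNF-α, and its muscle form COX7A1 was 0.165, 0.182 and 0.155 FPKM in NC and 0.371, 0.153 and 0.164 FPKM in TNF-α. NDUFA4 was 33.6, 31.7 and 32.4 FPKM in NC and 31.3, 116 and 93.7 FPKM in TNF-α, and NDUFA4L2, a hypoxia-induced relative, was 0.227, 0.206 and 0.133 FPKM in NC and 0.0998, 0.509 and 0.25 FPKM in TNF-α. In none of the 4 pairs did the second form pass the filter, whereas the common form passed it in all 4.

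The complex IV assembly factors with a COX symbol had the lowest nuclear median, 0.35, and library medians of 0.048, 0.54 and 0.54. COX17, the copper chaperone of the assembly, was 8.18, 7.1 and 7.07 FPKM in NC and 8.28, 22.4 and 17.7 FPKM in TNF-α (0.92 ± 0.34, adjusted p = 0.195). COX14 was 8.51, 8.1 and 7.83 FPKM in NC and 9.08, 34.4 and 24.5 FPKM in TNF-α (1.19 ± 0.45) and COX19 was 4.05, 4.39 and 4.37 FPKM in NC and 4.82, 9.03 and 7.44 FPKM in TNF-α (0.58 ± 0.21). In these 3 genes the groups did not overlap, although TNF-α replicate 1 exceeded the highest NC library only narrowly. COX16 was 1.08, 0.737 and 0.785 FPKM in NC and 0.685, 1.8 and 2.28 FPKM in TNF-α. COX10 and COX11, which act in the making of heme A and in copper delivery, had mean log2 fold changes of 0.051 ± 0.11 and -0.19 ± 0.13, and neither passed the test without TNF-α replicate 1. They are named after their values were seen, as the exceptions of that fit together with COX18, ATP5S, MT-ND5 and MT-ATP8.

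In complex V, 19 of 21 nuclear genes were tested, 18 of them were above 0, and the median was 0.81. ATP5F1B, the catalytic beta subunit and the most abundant nuclear gene of the 100, was 312, 300.0 and 308 FPKM in NC and 269.9, 498 and 469 FPKM in TNF-α (0.37 ± 0.28, adjusted p = 0.317), and its log2 fold change was -0.0080 after correction for GC content and length. ATP5F1D, the delta subunit of the central stalk, had the largest fold change of all 87 nuclear genes, at 36.3, 39 and 41.5 FPKM in NC and 37.1, 188 and 138 FPKM in TNF-α (1.33 ± 0.58, adjusted p = 0.195). Both were lower in TNF-α replicate 1 than in TNF-α replicates 2 and 3, ATP5F1B also lower than in NC. The membrane-sector genes ATP5MC1 and ATP5MPL were 16.5, 16.6 and 15.5 FPKM in NC and 15.8, 56.4 and 44.2 FPKM in TNF-α, and 8.64, 7.42 and 7.11 FPKM in NC and 7.4, 30.1 and 23.9 FPKM in TNF-α, respectively. ATP5ME was 8.13, 8.5 and 6.72 FPKM in NC and 7.78, 35.8 and 23.2 FPKM in TNF-α. ATP5IF1, the natural inhibitor of ATP hydrolysis by the enzyme, was 32.8, 30.9 and 28.3 FPKM in NC and 26.4, 65.6 and 58.9 FPKM in TNF-α (0.60 ± 0.35), again low in TNF-α replicate 1.

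Because genes of different length shifted differently in TNF-α replicates 2 and 3, the ratios were set against the length of the longest transcript. Across the 87 nuclear genes the log2 ratio decreased with log2 length in TNF-α replicate 2 (Pearson's r = -0.61) and 3 (r = -0.60) and not in TNF-α replicate 1 (r = 0.14), where the genes share a library and are not independent. The 36 nuclear genes with a transcript over 2 kb had medians of 1.13 and 0.91 in TNF-α replicates 2 and 3, against -0.10 and -0.10 for the 8755 protein-coding genes of that class. The 24 with transcripts of at most 1 kb had 1.77 and 1.34, against 1.57 and 1.31 for 232 genes. By this measure of length, the gap to other genes was therefore wide for long transcripts and narrow for short ones. The 27 of 1 to 2 kb lay between, at 1.39 and 1.09 against 1.06 and 0.88 for 1448 genes. The longest annotated transcript need not be the mRNA that the cells expressed, which gene-level values do not show. A nuclear gene classed as long may thus have expressed a shorter mRNA, so the gap for long transcripts is uncertain.

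**Figure D3:**
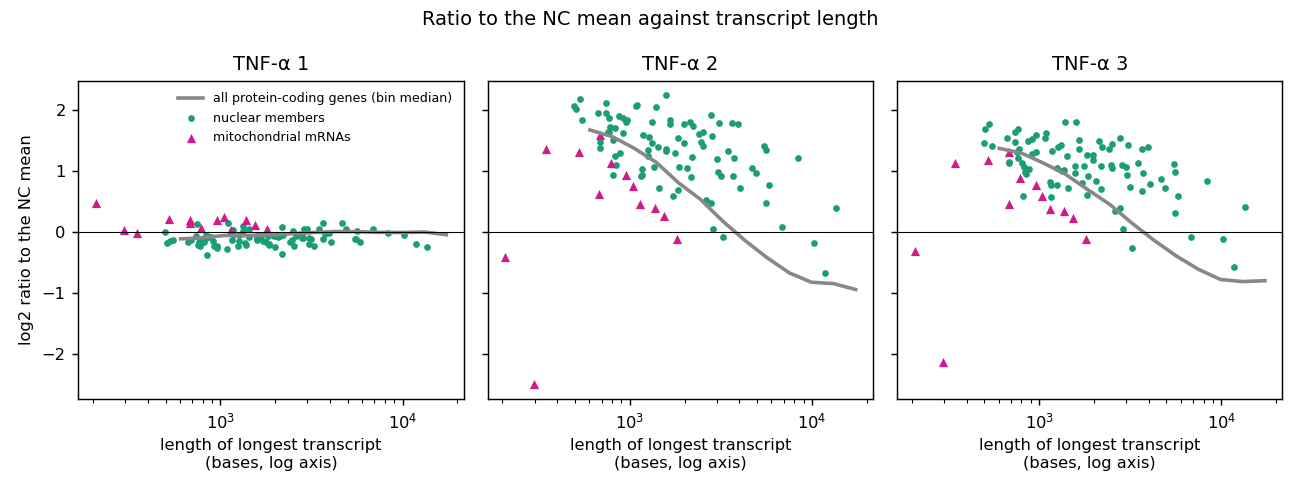
Log2 ratio to the NC mean (vertical) against the length of the longest transcript in bases (horizontal, log axis) in each TNF-α library, with green points for nuclear genes, triangles for mitochondrial mRNAs and a grey line for the median of all protein-coding genes in bins of length. In TNF-α replicates 2 and 3 the line falls with length and most nuclear genes over 2 kb lie above it, while in TNF-α replicate 1 the points lie between -0.37 and 0.48.

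The log2 ratio of each library was corrected for GC content and transcript length by splines fitted over all genes. The nuclear median log2 fold change was then 0.60 and the mitochondrial one 0.11. The length was that of the longest annotated transcript, which is the whole gene for the mitochondrial mRNAs. Nuclear genes may express shorter transcripts, so the correction may act unequally on nuclear and mitochondrial genes. It also left a difference by length. All protein-coding genes of at most 1 kb kept medians of 0.80 and 0.65 in TNF-α replicates 2 and 3, and nuclear members of that length had 1.07 and 0.85. For all protein-coding genes the medians were 0.29 and 0.26 at 1 to 2 kb and -0.029 and -0.020 over 2 kb. Corrected values are thus not free of length. By library the corrected medians were -0.11, 1.01 and 0.82 for the nuclear genes and 0.12, 0.12 and 0.088 for the mitochondrial mRNAs in TNF-α replicates 1, 2 and 3. The close mitochondrial medians covered members on both sides of 0. The corrected ratios in TNF-α replicates 1, 2 and 3 were -0.028, -2.68 and -2.29 for MT-ND4L and 0.062, -0.52 and -0.45 for MT-ND5, but -0.065, 1.24 and 1.02 for MT-ND3, 0.17, 1.03 and 0.89 for MT-CO2 and 0.17, 0.92 and 0.89 for MT-ND6. Without MT-ND4L and MT-ATP8 the mitochondrial medians were 0.12, 0.30 and 0.23. Complex IV kept the highest nuclear values in TNF-α replicates 2 and 3, with medians of -0.11, 1.31 and 1.02, and complex III had -0.076, 0.90 and 0.73. The number of genes past the threshold remained 0 of 100. Scaling by reads in genes in place of the deposited library size shifted the median of all genes from 0.043 to -0.16. Relative to that median the nuclear genes stood at 0.77 as deposited and 0.74 so scaled, and the mitochondrial mRNAs at 0.37 and 0.32.

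**Figure D4:**
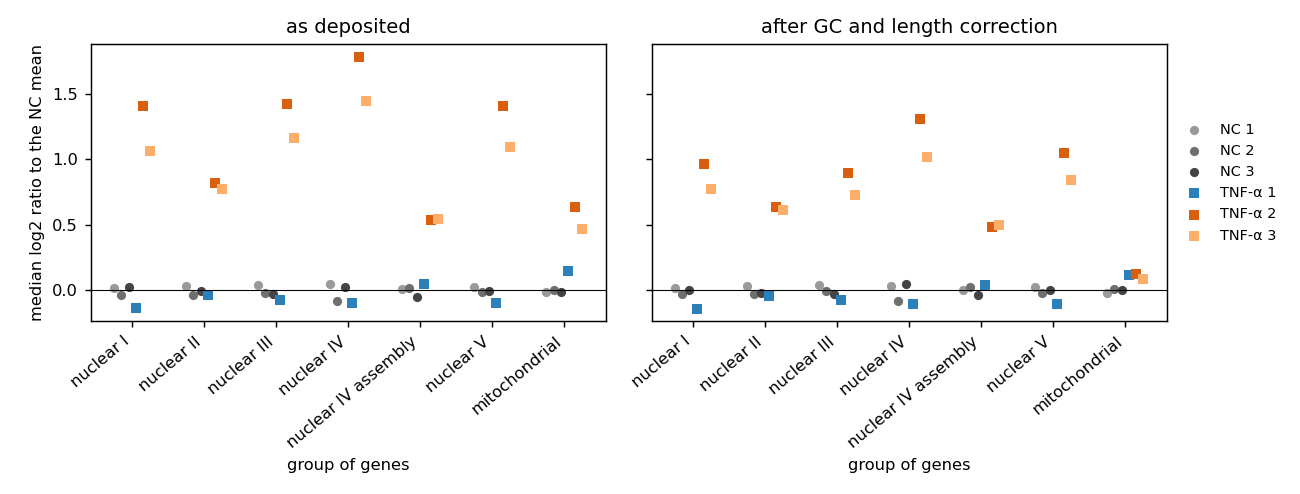
Median log2 ratio to the NC mean (vertical) of each group of genes (horizontal) in the 6 libraries, as deposited (left) and after correction for GC content and transcript length (right), with circles for NC and squares for TNF-α. The nuclear medians of TNF-α replicates 2 and 3 shrink but stay above NC, and the mitochondrial medians of the 3 treated libraries are 0.12, 0.12 and 0.088, over single mRNAs that lie on both sides of 0. All protein-coding genes of at most 1 kb (not drawn) also kept corrected medians above 0, 0.80 and 0.65 in TNF-α replicates 2 and 3.

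A few genes that complexes I and IV are known to use had almost no reads, and their exons overlap other genes. NDUFV2, an iron-sulfur subunit of the NADH-oxidizing module, was 0.327, 0.292 and 0.299 FPKM in NC and 0.448, 0.299 and 0.365 FPKM in TNF-α, with 28.4% of its exonic length shared with the exons of another gene model, AP005263.1. NDUFA7 was 0.607, 0.41 and 0.154 FPKM in NC and 0.44, 0.273 and 0.495 FPKM in TNF-α, with 33.5% shared. These percentages refer to all merged exons. The shared bases were 771 for NDUFV2 and 473 for NDUFA7, whose longest transcripts have 942 and 601 bases. The share within an expressed mRNA may thus be larger. COX20, an assembly factor for MT-CO2, was 0.552, 0.514 and 0.467 FPKM in NC and 0.326, 0.175 and 0.203 FPKM in TNF-α, with 72% shared with HNRNPU on the opposite strand. All 3 were below the filter and none was tested. The readthrough models, NDUFC2-KCTD14 and ATP5MF-PTCD1, shared all and 93.8% of their exonic length with other genes and were at or near 0.

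Over the 100 nuclear genes, the median NC level was 24.1 FPKM for the 58 with under 10% of exonic length shared, 7.92 FPKM for the 38 with 10% to 50%, and 0.275 FPKM for the 4 with at least 50%. The correlation of log2 NC level with the shared percentage was r = -0.43 over the 95 genes with a level above 0, which differ in function and length as well. A fragment in a shared exon can be dropped or counted for either gene, and the setting used was not stated, so the levels of such genes are uncertain. The tested genes NDUFB11 (44.9% shared), NDUFB8 (48.5%), NDUFS7 (49.1%) and ATP5ME (61.6%) carry the same limit on their level. The log2 ratio of nuclear genes had r = 0.13 with the shared percentage in TNF-α replicate 2 and r = 0.11 in TNF-α replicate 3.

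**Figure D5:**
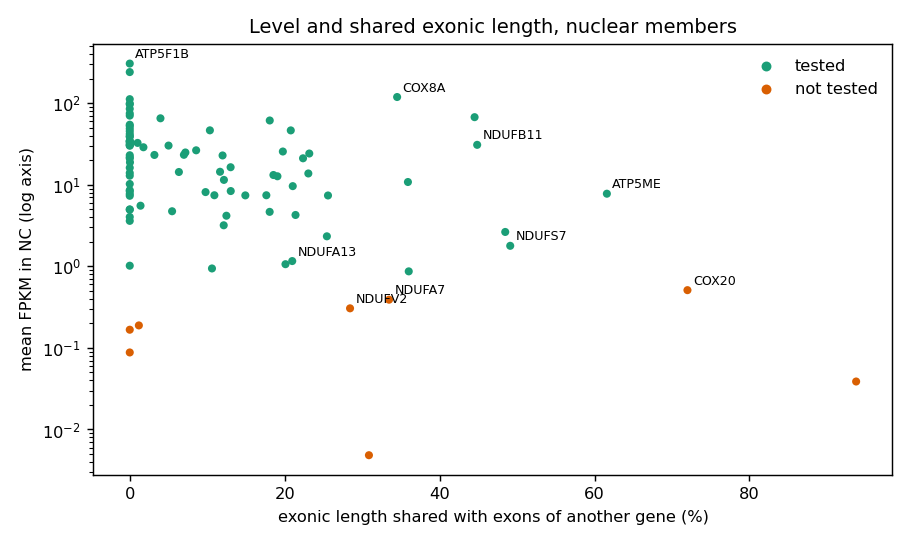
Mean FPKM in NC on a log axis (vertical) against the percentage of exonic length shared with exons of another gene (horizontal) for the nuclear genes with a level above 0, in green if tested and orange if not. The untested NDUFV2, NDUFA7 and COX20 lie below 1 FPKM with 28.4%, 33.5% and 72% shared, while ATP5F1B without overlap is highest.

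The factors that build the complexes and read mitochondrial DNA were examined from hand-written lists, and none of their genes passed the test (background 1.01%). Of all 12136 genes tested, 6432 had a log2 fold change above 0. Of the complex I assembly factors 15 of 16 were tested and 15 had a log2 fold change above 0, with a median of 0.44. The median was 0.68 for 4 factors of complex II (3 above 0), 0.35 for 6 of complex III (5 above 0), 0.66 for 11 further factors of complex IV (11 above 0) and 0.14 for 3 of complex V (3 above 0). The 13 tested electron carriers and coenzyme Q enzymes had a median of 0.23, with 11 above 0. Among them CYCS, cytochrome c, was 52.4, 54.2 and 49.1 FPKM in NC and 53.5, 78.1 and 75.8 FPKM in TNF-α (0.39 ± 0.19, adjusted p = 0.198). These medians lay below that of the nuclear subunits, and the difference was not tested. After correction for GC content and length, the medians of the assembly factors of complexes I to V were 0.21, 0.20, 0.21, 0.45 and 0.049, that of the electron carriers and coenzyme Q enzymes turned to -0.032, and the CYCS value was 0.63.

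The 24 genes of mitochondrial transcription and RNA maturation had a median of 0.23, with 15 above and 9 below 0, and the 9 of mitochondrial DNA replication a median of 0.10, with 5 above and 4 below. TFAM, which binds and packages mitochondrial DNA and starts its transcription, was 11.6, 12.6 and 10.4 FPKM in NC and 12.8, 8.68 and 9.67 FPKM in TNF-α (-0.15 ± 0.17). POLRMT, the mitochondrial RNA polymerase, was 26.9, 25.2 and 29.2 FPKM in NC and 30.8, 59.8 and 54 FPKM in TNF-α (0.75 ± 0.27, adjusted p = 0.195), with every treated library above NC. LRPPRC, which stabilizes the heavy-strand mRNAs, was 17.1, 17.9 and 17.3 FPKM in NC and 17.4, 13.7 and 13.3 FPKM in TNF-α (-0.23 ± 0.15). TFAM and LRPPRC were lower in TNF-α replicates 2 and 3 than in every NC library, and POLRMT was higher. Correction for GC content and length turned the log2 fold changes of TFAM and LRPPRC to 0.24 and 0.17 and brought that of POLRMT to 0.38. It left the median for mitochondrial transcription and RNA maturation at 0.23 and turned that for mitochondrial DNA replication to -0.081.

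The regulators of nuclear respiratory genes had values on both sides of 0. The median over 9 tested genes of 11 was 0.041, with 5 above and 4 below 0. NRF1, an activator of many respiratory genes, was 7.63, 7.07 and 7.44 FPKM in NC and 6.72, 8.31 and 8.93 FPKM in TNF-α (0.093 ± 0.14), and GABPA, the DNA-binding subunit of GABP, was 4.19, 4.84 and 3.63 FPKM in NC and 4.28, 1.93 and 2.28 FPKM in TNF-α (-0.49 ± 0.24). NRF1 was thus slightly above the NC range in TNF-α replicates 2 and 3 and slightly below it in TNF-α replicate 1, while GABPA was below it in TNF-α replicates 2 and 3 only. After correction for GC content and length their log2 fold changes were 0.038 and -0.10, and the median of the list was 0.0013.

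RefSeq promoters (GRCh38.p14, 250 bases before to 50 after the start) matched 76 of the 100 nuclear genes. Of the 76, the letters GCGCA, any base, then GCGC, to which NRF1 is known to bind, were found on either strand in 23.7% (18), against 6.28% of 27305 promoters of all genes and 8.57% of 15842 of protein-coding genes. The GABP letters CCGGAAG were found in 28.9% (22), against 10.7% of 27305 promoters and 14.2% of those of protein-coding genes, and the YY1 letters ATGGCGGC in 17.1% (13), against 3.21% and 4.49%. None of the 3 strings contains another. A match describes the sequence and is not evidence of binding. The median log2 fold change of the tested nuclear genes was 0.84 for the 17 with and 0.81 for the 51 without the NRF1 letters, 0.91 and 0.81 for GABP, and 0.73 and 0.85 for YY1. Windows are shown for 4 genes with an NRF1 match, chosen for their high fold changes, to show what the match looks like, with the match in capitals.
ATP5ME, chr4:674426-674465, - strand: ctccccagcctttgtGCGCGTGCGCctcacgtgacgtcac
UQCR11, chr19:1605467-1605506, - strand: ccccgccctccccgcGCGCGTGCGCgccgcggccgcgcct
NDUFA3, chr19:54102767-54102806, + strand: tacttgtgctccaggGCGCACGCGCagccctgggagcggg
NDUFA11, chr19:5903864-5903903, - strand: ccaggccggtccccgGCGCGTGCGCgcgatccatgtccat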

How the data were processed

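Poly(A)-selected RNA-seq libraries of 3 NC and 3 TNF-α cultures of U251 cells were analysed, grouped by sample title. The authors deposited gene values as FPKM, with gene lengths. The submitters' processing notes name HISAT2 2.0.5, StringTie 1.3.3b, featureCounts 1.5.0, DESeq2, edgeR and GATK 3.7 without roles, and the use of strand was not given in the sources used here. All 58735 genes matched GENCODE 29 in identifier, position and merged exon length. A further 6 columns, whose names fit none of the samples, were not used. All values (100%) were whole reads to within 0.01 of a read, and totals ranged from 31992167 to 37897044. This depth covers counting error only.

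Values were tested as log2(FPKM + 1), which understates changes of low genes, with limma 3.58.1 in R 4.3.3 (lmFit, eBayes with an intensity trend, two-sided) over the 12136 genes with at least 1 FPKM in at least 3 libraries. The adjustment was Benjamini-Hochberg over these genes, the threshold was 0.05, and fold changes carry their SE. Scripts were tested on simulated data. Correction for GC content and length used splines with 5 degrees of freedom each. Shared exonic length came from GENCODE 29 with bedtools 2.31.1, and tables and plots were made with Python 3.11.15, pandas 2.3.3, numpy 2.4.6 and matplotlib 3.10.9. Alternatives were another pseudocount, 2 other filters, 3 other scalings, the correction, limma-voom on recovered reads, a replicate block, and leaving out libraries.

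Named genes were the 13 mitochondrial mRNAs, any gene past the threshold, for each nuclear complex up to 4 tested genes with the largest absolute log2 fold change and that with the highest mean FPKM, the tissue-restricted or stress-linked forms with their partners and ATP5IF1, TFAM, POLRMT, LRPPRC, NRF1, GABPA and CYCS, and up to 3 genes past the threshold from each list. The genes and lists were chosen with earlier results of these data known. The lists were assembly factors of complexes I to V, electron carriers, mitochondrial transcription, mitochondrial DNA replication, regulators, a treatment check and cell type markers. Of the 26 genes named for mitochondrial transcription, 24 were matched by symbol.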

Additional observations from a re-analysis of the deposited data

How the results depend on the processing

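The number of genes past the threshold was 0 of 100 under a pseudocount of 0.1, without a filter (0 of 109 tested), at an FPKM of at least 5 (0 of 86), under scaling by reads in genes or in nuclear genes, median centring, GC and length correction and limma-voom, and it ranged from 0 to 94 when each library was left out, 94 being without TNF-α replicate 1 and 0 without any other library. Of all genes tested, 0.183% to 2.79% passed under these settings with all libraries. Without TNF-α replicate 1, 79.4% of all genes tested passed, and without any other library 0.0824% to 0.346%. The nuclear median was 0.51 to 1.25 and the mitochondrial one 0.31 to 0.55 over the 6 fits that left out 1 library. The mitochondrial median moved to 0.15 with reads in genes, 0.16 with reads in nuclear genes and 0.11 after GC and length correction. Without TNF-α replicates 2 and 3 the nuclear median was -0.10 and the mitochondrial one 0.15, where the lone treated library was assumed to vary like the NC libraries. Signs turned in that fit for ATP5F1B -0.18, ATP5F1D -0.067, ATP5IF1 -0.20, ATP5MC1 -0.037, ATP5MPL -0.050, COX16 -0.14, COX4I1 -0.016, COX5B -0.068, COX6A1 -0.16, COX6B1 -0.16, COX7A2 -0.14, COX8A -0.18, CYC1 -0.057, MT-ATP8 0.48, MT-ND3 -0.0073, MT-ND4L 0.042, MT-ND5 0.061, NDUFA1 -0.18, NDUFA4 -0.055, NDUFB11 -0.22, NDUFB7 -0.14, NDUFB9 -0.086, NDUFS5 -0.13, SDHB -0.13, SDHC -0.24, UQCR10 -0.22, UQCRC1 -0.24, UQCRQ -0.085. Scaling by reads in genes turned MT-CO1 to -0.062 and SDHC to -0.037, and by reads in nuclear genes to -0.056 and -0.033. GC and length correction turned ATP5F1B to -0.0080, MT-CO1 to -0.10 and MT-CYB to -0.047. MT-ATP8, -0.35 to 0.087 over the fits that left out 1 library, was 0.041, 0.011, 0.087 and 0.036 without NC replicate 1, NC replicate 2, TNF-α replicate 2 and TNF-α replicate 3. Of the 45 named members with a fit, 15 kept their sign in all 16 alternatives. The cause was not tested. The deviations of same-numbered libraries from their group means had r = -0.014, -0.18 and 0.12. Because TNF-α replicates 2 and 3 both stood apart from TNF-α replicate 1, these values cannot decide whether the numbers pair the libraries. With the replicate block, 0 of 100 genes passed, the calls over all genes went from 123 to 24, and the medians stayed at 0.81 and 0.42. Genes near 1 FPKM such as COX16 are limited by depth, since 3 reads in a gene of 2 kb give 0.0415 to 0.0618 FPKM.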

Other observations

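Other parts of the mitochondrial and translation machinery had library medians with the same pattern as the nuclear subunits, high in TNF-α replicates 2 and 3 and near 0 in TNF-α replicate 1. The 76 tested genes of mitochondrial ribosomal proteins, which translate the 13 mRNAs, had a median log2 fold change of 0.71, with 75 above 0, and library medians of -0.059, 1.20 and 1.07 in TNF-α replicates 1, 2 and 3. The 78 tested cytosolic ribosomal protein genes had a median of 1.06, with 78 above 0, and library medians of -0.087, 1.81 and 1.46. They took 3.08%, 2.93% and 3% in NC and 2.77%, 7.83% and 6.7% in TNF-α of the reads in genes. None of these genes passed the test, and 12 and 11 had an unadjusted p under 0.05 (background 24.2%). A log2 fold change above 0 was found for 6432 of all 12136 genes tested.

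The mitochondrial rRNAs MT-RNR1 and MT-RNR2 took 0.166%, 0.167% and 0.153% in NC and 0.182%, 0.165% and 0.175% in TNF-α of the reads, after poly(A) selection. The MT-RNR1 to MT-RNR2 ratio was 0.267, 0.248 and 0.295 in NC and 0.279, 0.558 and 0.518 in TNF-α, so its values in TNF-α replicates 2 and 3 were apart from the other 4 libraries. The nuclear copy MTND2P28 was listed at 0.0458, 0.0443 and 0.0483 in NC and 0.041, 0.0115 and 0.0173 in TNF-α relative to MT-ND2 in FPKM, and MTATP6P1 at 0.208, 0.209 and 0.196 in NC and 0.208, 0.166 and 0.175 in TNF-α relative to MT-ATP6. Both ratios were lowest in TNF-α replicates 2 and 3. A further nuclear copy, MTCO1P12, went the other way relative to MT-CO1. It was 1.11, 1.36 and 1.47 times its NC mean in TNF-α replicates 1, 2 and 3, against 1.08, 1.2 and 1.17 times for MT-CO1. The assignment of reads between near-identical copies is uncertain.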
